A study of Mus musculus with 24 samples.

Results

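Within each genotype group of the *Tbx1* and Bcat experiments, the arrays numbered 1 and 2 were set against the arrays numbered 3 and 4. The arrays were chosen by the number that ends their label and by no measured value. This gave 16 of the 24 arrays of the study, 8 against 8, from 4 genotype groups of 4 arrays each. The comparison asks which genes and classes of RNA differed between arrays of the same genotype, and whether the difference was shared by both experiments.

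Each array measured RNA from a pool of 3 or 6 mouse embryos at embryonic day E9.5, with 19 to 21 somite pairs. The tissue was the microdissected anterior heart field (AHF), the pharyngeal mesoderm that supplies the cardiac outflow tract, taken with the surrounding pharyngeal arches. *Tbx1* KO embryos carried *Mef2c-AHF-Cre*, a Cre driven by a *Mef2c* enhancer in this field, with either a floxed and a null allele of *Tbx1* or 2 floxed alleles. *Tbx1* encodes a T-box transcription factor. Bcat KO embryos carried the same Cre with 2 floxed alleles of β-catenin, the effector of canonical Wnt signaling. By the methods the controls were Cre-negative *Tbx1* f/+ and β-catenin f/+ embryos, whereas the sample labels name wild type and Cre-carrying *Tbx1* f/+ littermates, so the control genotype of an array is not settled. The Rescue experiment, 4 Rescue KO arrays that lacked *Tbx1* and 1 copy of β-catenin in the Cre domain and 4 controls, was used as a further comparison. The methods state that 2 to 3 batches of arrays were run per genotype. Neither the labels nor the methods say which array lay in which batch, and the array number is called here only a number.

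The values were log2 intensities, and a difference of 1 is a doubling. Array medians ran from 8.0 to 8.14 over the 24 arrays, and 19938 genes were tested. The AHF markers fixed for the tissue check were present, with mean levels over the 16 arrays of 11.7 for *Tbx1*, 10.7 for *Isl1* and 10.7 for *Mef2c*. With the difference between arrays 1 and 2 and arrays 3 and 4, called the set difference, in the fit, *Tbx1* was lower in *Tbx1* KO than in control arrays, with a log2 difference of −0.643 (SE 0.081, limma adjusted p = 0.00374). *Ctnnb1*, which encodes β-catenin, differed by −0.026 between Bcat KO and control arrays (SE 0.037, adjusted p = 0.825). Nothing in the labels says that arrays of 1 group came from separate litters, so p-values measure the spread between these pools. Since whole tissue was measured, fewer cells of a type and less RNA per cell cannot be told apart.

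Many of the RNAs with the largest differences are short and not translated. C/D box small nucleolar RNAs guide 2′-O-methylation of ribosomal RNA and H/ACA box RNAs guide its conversion to pseudouridine, and most of both kinds are cut from the introns of a host gene that is itself spliced to another RNA. Small Cajal body RNAs do the same for spliceosomal RNAs. MicroRNAs are cut from hairpin precursors to short mature strands that pair with mRNAs through their seed, and replication-dependent histone mRNAs end in a stem loop and carry no poly(A) tail.

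The array number separated the arrays of every genotype group along 1 axis. Deviations of each array from the mean of its genotype group were split into principal components, and the first component held 36.9% of their variance. All 8 arrays numbered 1 and 2 had a positive score, between 0.013 in Bcat control array 1 and 0.136 in *Tbx1* KO array 2. All 8 arrays numbered 3 and 4 had a negative score, between −0.157 in *Tbx1* KO array 3 and −0.005 in Bcat control array 3. The sets therefore did not overlap, although the gap between the Bcat controls was small. The next components held 18.2% and 11.8%.

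**Figure D1:**
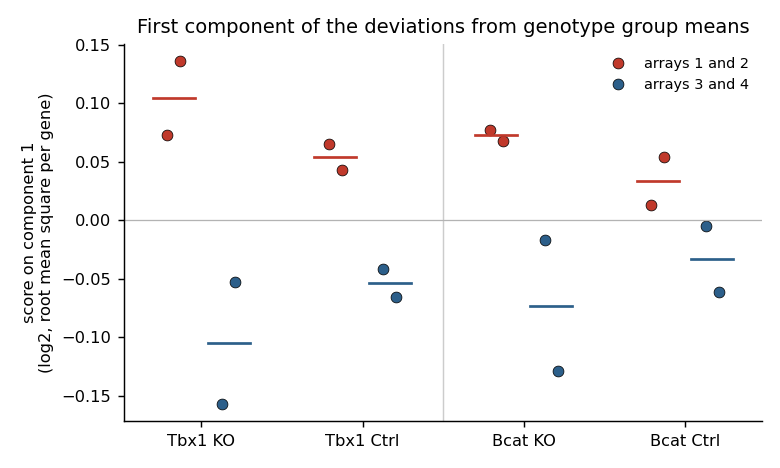
Score of each of the 16 arrays on the first component of the deviations from genotype group means (vertical axis, log2, root mean square per gene), by genotype group (horizontal axis), with arrays 1 and 2 drawn left of arrays 3 and 4. Every array numbered 1 or 2 lies above 0 and every array numbered 3 or 4 below it, and the Bcat control arrays 1 and 3 lie closest to 0, at 0.013 and −0.005.

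Of the summed variance over genes, the part that both experiments shared between arrays 1 and 2 and arrays 3 and 4 was 22.8%. Genotype within experiment took 13.9% and the difference between the experiments 11.8%. The part of the set difference that differed between the experiments took 7.67%, the part that differed between KO and control arrays 11% and the residual 32.8%. With average-linkage clustering on Spearman correlations, as the methods name it, the arrays of the *Tbx1* experiment fell into 2 branches that were arrays 1 and 2 and arrays 3 and 4, KO and control together. Of the Bcat arrays, Bcat control array 2 left the others first, and in the Rescue experiment the numbers did not form such branches. With *Tbx1* and Bcat arrays clustered together and cut into 4 branches, *Tbx1* arrays 1 and 2, KO and control, made 1 branch. Bcat KO arrays 1 and 2 and Bcat control array 1 fell with *Tbx1* KO array 4 and *Tbx1* control arrays 3 and 4. The same branch held Bcat KO array 3 and Bcat control arrays 3 and 4. *Tbx1* KO array 3 joined Bcat KO array 4, and Bcat control array 2 stood alone. Arrays 1 and 2 of the 2 experiments thus did not form a common branch. The median residual SD of a gene was 0.0968 with the set difference in the fit and 0.112 without it.

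In the *Tbx1* and Bcat experiments together, 2872 genes were higher in arrays 1 and 2 than in arrays 3 and 4, 14.4% of all genes tested, and 1452 were lower, 7.28% (limma, adjusted p under 0.05). The differences were small. Their median over all genes was 0.014, and among the called genes 27 higher and 25 lower genes exceeded a fold of 1.5. In 1133 genes, 5.68%, both arrays 1 and 2 lay above both arrays 3 and 4 in all 4 groups, and in 632, 3.17%, they lay below. The share of higher genes among those called was 66.4%, and it was 47.3% when the arrays were quantile normalized once more, 77.9% when each was centred on its median and 55.9% over single probe sets. Statements on the balance of higher and lower genes therefore hold for the deposited scale alone.

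The same comparison in each experiment gave 3791 higher genes (19.0%) and 1221 lower genes (6.12%) in the *Tbx1* experiment. The Bcat experiment gave 1231 higher (6.17%) and 1111 lower genes (5.57%). The share of higher genes in the *Tbx1* experiment was 75.6% of the calls, and 49.7% after a further quantile normalization, while in the Bcat experiment it was 52.6%, and 80.5% after median centring. In the Rescue experiment 0 genes passed (0.0%), with 666 at an unadjusted p under 0.05 in limma and 1 higher and 2 lower at that p with a fold over 1.5.

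Both experiments moved many genes in one direction. Higher in both were 770 genes, which are 20.3% of those higher in the *Tbx1* experiment and 62.6% of those higher in the Bcat experiment. Lower in both were 405, or 33.2% and 36.5%. In opposite directions, 78 genes were higher in the *Tbx1* and lower in the Bcat experiment and 9 the reverse. Over all genes the set differences of the 2 experiments correlated with r = 0.529, against 0.261 for *Tbx1* with Rescue and 0.196 for Bcat with Rescue. These are correlations across genes, which are not independent replicates, and all arrays share 1 platform and 1 normalization. Between the KO and the control arrays of 1 experiment r was 0.562 for *Tbx1*, 0.385 for Bcat and 0.0949 for Rescue. No gene passed for a set difference that differed between KO and control arrays (limma, 0 genes in each experiment, with 2019 in *Tbx1*, 1692 in Bcat and 541 in Rescue at an unadjusted p under 0.05).

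The largest shared decreases were in C/D box small nucleolar RNAs. Of the 31 measured, 0 were higher and 21 lower in arrays 1 and 2, against 7.28% of all genes, with a median difference of −0.399. In the *Tbx1* experiment 19 were lower with a median of −0.472, and in the Bcat experiment 17 with a median of −0.359. In the Rescue experiment 0 passed and the median was −0.088. In 15 of the 31 the sets did not overlap in any of the 4 groups, with arrays 1 and 2 the lower, against 3.17% of all genes. With 1 array left out, between 19 and 22 were lower over both experiments. In Bcat alone between 7, without Bcat KO array 3, and 16 were lower, and 10 or fewer were without Bcat KO array 1 or 2 or Bcat control array 2 or 4. The median stayed negative in both experiments in all these fits.

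The genes named for the largest shared differences were picked among called genes whose sets did not overlap in any of the 4 groups. Their lack of overlap is therefore given by the rule and is no further support. *Snord49b* was among them. In *Tbx1* KO it measured 11.54 and 11.43 in arrays 1 and 2 against 12.97 and 13.06 in arrays 3 and 4, and in *Tbx1* controls 11.77 and 11.30 against 12.80 and 12.91. In Bcat KO it measured 11.33 and 11.19 against 12.99 and 12.97, and in Bcat controls 11.32 and 11.19 against 11.81 and 11.96. The sets did not overlap in any group, and the Bcat control arrays 3 and 4 lay between the low and the high arrays. The difference was −1.297 (SE 0.118, limma adjusted p = 1.61e-05).

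*Snord35a* behaved in the same way. Over the 8 arrays numbered 1 and 2 its lowest, median and highest levels were 9.21, 9.36 and 9.77, and over the 8 arrays numbered 3 and 4 they were 9.91, 10.89 and 11.11 (difference −1.263, SE 0.103, adjusted p = 6.61e-06). *Snord47* ran over 9.31, 9.58 and 9.82 in arrays 1 and 2 and over 10.01, 11.11 and 11.48 in arrays 3 and 4 (−1.327, SE 0.154, adjusted p = 8.59e-05). For both, as for *Snord49b*, the lowest levels of arrays 3 and 4 were those of Bcat control arrays. *Snord53*, with 8.95, 9.20 and 9.61 against 9.63, 10.44 and 10.56, differed by −1.045 (SE 0.099, adjusted p = 2.38e-05).

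*Snord118*, the U8 RNA that is needed to process the large ribosomal RNAs and is transcribed from its own gene, differed by −0.977 (SE 0.138, adjusted p = 0.000286). Its levels ran over 6.68, 7.18 and 7.48 in arrays 1 and 2 and over 7.69, 8.08 and 8.66 in arrays 3 and 4, again without overlap. *Snord87*, *Snord33*, *Snord57*, *Snord15a* and *Snord73b* differed by −0.805 to −0.601. Not every C/D box RNA was lower. *Snord73a*, *Snord96a* and *Snord38a* differed by 0.053, 0.039 and −0.011 and did not pass, and *Snord58b* was at 0.17.

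Among 20 H/ACA box small nucleolar RNAs 8 were lower and 1 was higher, against 7.28% and 14.4% of all genes, with a median of −0.223. In *Tbx1* 6 were lower and 0 higher (median −0.116), and in Bcat 7 lower and 1 higher (median −0.291). Without *Tbx1* KO array 4 or *Tbx1* control array 2 the *Tbx1* median was −0.023. The class mean, as a deviation from the group mean, was 0.122 in *Tbx1* control array 1 and −0.158 in *Tbx1* KO array 3. The *Tbx1* sets thus overlapped for this class. *Snora23* measured 10.30, 10.42 and 10.46 as lowest, median and highest of arrays 1 and 2, against 10.71, 11.10 and 11.22 in arrays 3 and 4 (difference −0.685, SE 0.055, adjusted p = 6.61e-06), and the levels within a set were close in both experiments. In the Rescue experiment it differed by 0.042. *Snora7a* and *Snora52* differed by −0.589 and −0.516. The exception was *Snora44*, which was higher by 0.697 (SE 0.166, adjusted p = 0.0077), with 9.98, 10.24 and 10.62 against 9.04, 9.51 and 10.30, and at −0.669 in the Rescue experiment. Of 3 Cajal body RNAs 2 were lower, *Scarna17* at −0.368 and *Scarna13* at −0.242.

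**Figure D2:**
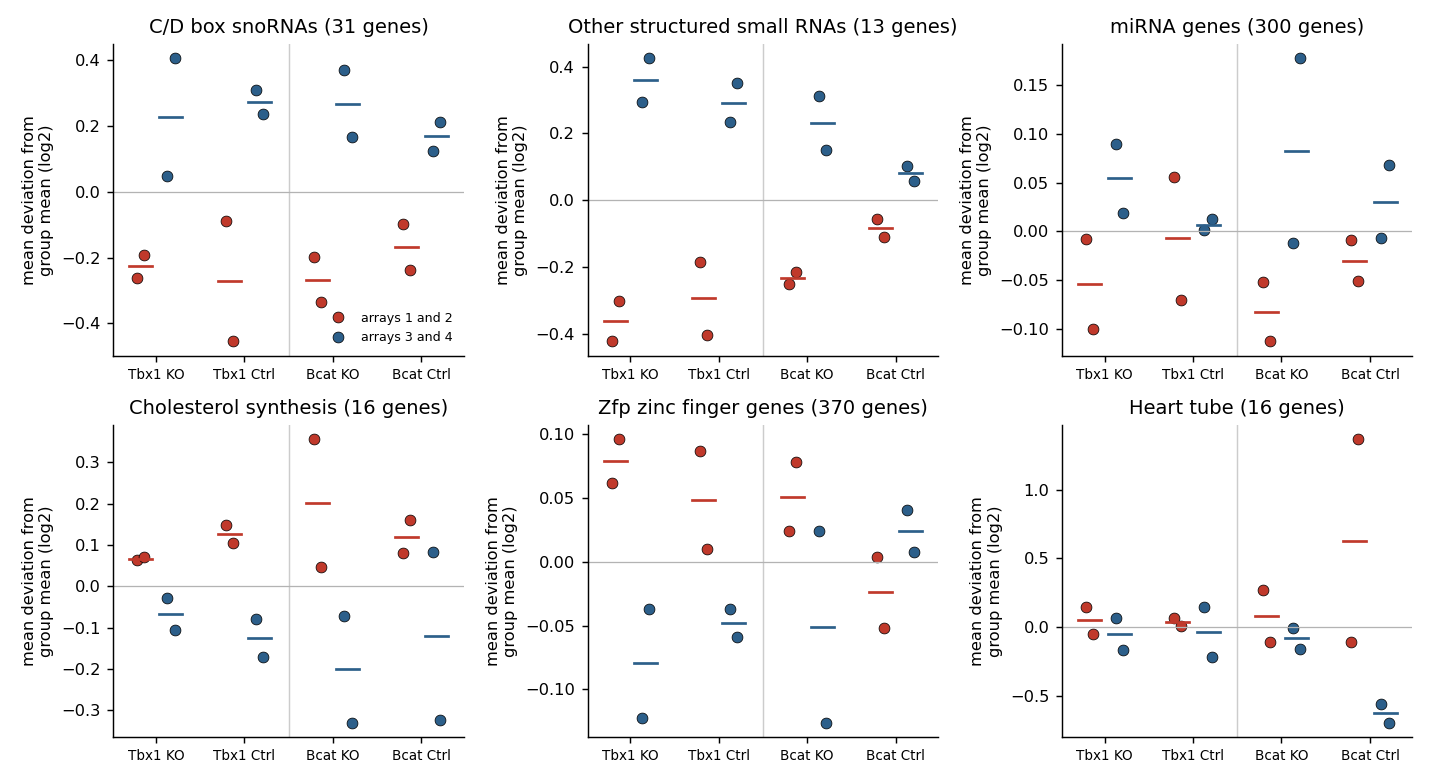
Mean deviation from the genotype group mean (vertical axes, log2) of the genes of an RNA class in each of the 16 arrays, by genotype group, with arrays 1 and 2 left of arrays 3 and 4. For the C/D box small nucleolar RNAs arrays 1 and 2 lie between −0.455 and −0.09 in the *Tbx1* experiment and between −0.335 and −0.098 in the Bcat experiment, and all arrays 3 and 4 lie above 0.

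The short RNA and its host gene parted. By RefSeq positions 53 of 54 small nucleolar and Cajal body RNAs lay inside another gene, and 30 of them had 1 host that was itself measured, 26 hosts in all. The median difference was −0.302 for the small RNAs and 0.057 for the hosts, and in 29 of the 30 pairs the small RNA was the lower of the pair. Of the 26 hosts 5 were higher, 5 lower and 16 did not pass, where 14.4% of all genes were higher and 7.28% lower. Of the 17 hosts of the 18 small RNAs that were lower, 3 were higher, 4 lower and 10 did not pass. *Gas5*, the noncoding host of *Snord47*, differed by −0.267 (adjusted p = 0.0197) where *Snord47* differed by −1.327. *Wdr43*, which encodes a ribosome assembly factor and holds *Snord53*, was higher by 0.159, and *Ncl*, which encodes nucleolin and holds *Snord82*, was higher by 0.116, while *Snord82* differed by −0.806. *Ipo7*, an importin gene that holds *Snora23*, was higher by 0.142. *Nop56*, a core protein gene of C/D box particles, was at −0.027 where its *Snord57* was at −0.655. Within 1 host, *Rps3a1*, *Snord73b* was at −0.601 and *Snord73a* was at 0.053. The whole-transcript array does not show whether a probe read the mature small RNA or the intron around it.

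**Figure D3:**
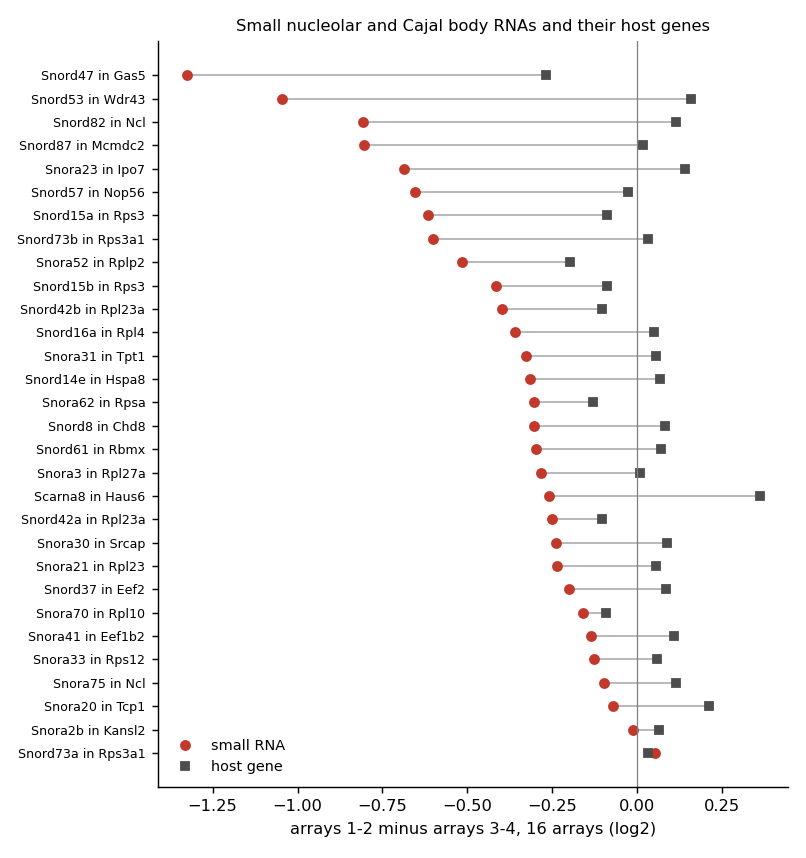
Set difference over 16 arrays (horizontal axis, log2) of each of 30 small nucleolar and Cajal body RNAs (circles) and of the gene that holds it (squares), 1 pair per row. The squares lie between −0.267 and 0.362, and in 29 of 30 rows the circle lies to the left of the square.

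Genes for the proteins that bind these RNAs were mostly not called. Of 13 genes of Cajal bodies and small nucleolar particles 1 was higher (*Ncl*) and 1 lower (*Snu13*, −0.111), 7.69% each. Of all genes 14.4% were higher and 7.28% lower. *Gar1*, which encodes a protein of H/ACA particles, went opposite ways. In the *Tbx1* experiment it measured 11.88 and 12.04 in KO arrays 1 and 2 and 12.01 and 12.07 in control arrays 1 and 2, against 11.51 and 11.52 in KO and 11.51 and 11.60 in control arrays 3 and 4. For the Bcat experiment the values were 11.38 and 11.24 in KO and 11.07 and 11.09 in control arrays 1 and 2, against 11.50 and 11.45 in KO and 11.59 and 11.59 in control arrays 3 and 4. The set difference was 0.463 in *Tbx1* (adjusted p = 3.85e-05) and −0.34 in Bcat (adjusted p = 0.00212), without overlap of the sets in either.

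Other structured small RNAs moved with the small nucleolar RNAs. Of 13 small nuclear, 7SK, RNase P, RNase MRP, vault and Y RNAs, 11 were lower and 0 higher, against 7.28% and 14.4% of all genes, with a median of −0.476 over both experiments, −0.627 in *Tbx1*, −0.297 in Bcat and −0.165 in Rescue. *Rpph1*, the catalytic RNA of RNase P, which matures tRNA ends, differed by −0.476 (SE 0.065, adjusted p = 0.000228). Its levels of 12.67, 13.01 and 13.35 in arrays 1 and 2 overlapped 13.12, 13.48 and 13.71 in arrays 3 and 4 across groups, but not within a group. The related *Rprl2* and *Rprl1* differed by −0.626 and −0.587, *Rnu7*, which guides histone mRNA end cleavage, by −0.457, *Rmrp*, the RNA of RNase MRP, by −0.359 and *Rnu12*, of the minor spliceosome, by −0.27. *Vaultrc5*, the RNA of vault particles, differed by −0.993 (SE 0.12). The exceptions were *Rn7sk*, which holds the elongation factor P-TEFb inactive, at 0.031 (adjusted p = 0.522) with a mean level of 13.998, and *Rnu6*, at −0.041 with a level of 3.99. *Terc*, the RNA template of telomerase, differed by −0.487 (adjusted p = 0.00281). *Malat1*, a long RNA kept in the nucleus, went the other way, with 11.67, 11.90 and 12.10 in arrays 1 and 2 and 10.95, 11.40 and 11.63 in arrays 3 and 4, a difference of 0.52 (SE 0.091, adjusted p = 0.00119). It was the exception on a list of 12 small nucleolar RNA host genes and long nuclear RNAs. Of these 6 were lower (50.0%) and 1 higher (8.33%), with a median of −0.158. In *Tbx1* 3 were lower and 1 higher, and in Bcat 1 was lower and 0 higher.

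Of 300 microRNA genes 57 were lower (19.0%, against 7.28% of all genes) and 6 higher, with a median of −0.07. Their levels were low, with a median of 6.53 against 8.6 over all genes. Of the 189 with a mean level of at least 6, 47 were lower and 1 higher. In KO arrays alone 34 were lower and 0 higher (median −0.12), where 538 of 19938 genes were lower and 1252 higher. In control arrays alone 12 were lower and 2 higher (median −0.018), where 280 genes were lower and 286 higher. In *Tbx1* 33 microRNA genes were lower and 7 higher (median −0.048), and in Bcat 31 and 2 (median −0.09). Without Bcat KO array 4 the Bcat median was −0.039. The Rescue median was −0.037. Of 1027 odorant receptor genes, also low in level (median 5.51), 66 were lower. Their medians were −0.049 over both experiments, −0.018 in *Tbx1*, −0.074 in Bcat and −0.037 in Rescue. Whether the microRNA shift was separate from one of low-level genes was not tested. In 23 of the 300 the sets did not overlap in any group, with arrays 1 and 2 the lower, against 3.17% of all genes. *Mir98*, of the let-7 family, differed by −0.419 (SE 0.044, adjusted p = 4.79e-05), with 6.17, 6.31 and 6.53 in arrays 1 and 2 and 6.50, 6.75 and 6.94 in arrays 3 and 4. Its lowest level in arrays 3 and 4 was below its highest in arrays 1 and 2, so the sets touched over all 16 arrays though not within a group. *Mirlet7a-2*, of the same family, was higher, by 0.17 (limma adjusted p = 0.0438). *Mir9-1*, of a neural microRNA family, ran over 6.46, 6.69 and 6.95 in arrays 1 and 2 and over 6.997, 7.15 and 7.62 in arrays 3 and 4 (−0.51, SE 0.088, adjusted p = 0.00105), without overlap. *Mir18*, of the *Mir17* cluster, differed by −0.507 (SE 0.113, adjusted p = 0.0052).

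Of the 300 genes 270 were matched to mature sequences of RefSeq (GRCm38.p6). Sequences of 2 sets of 3 lower genes that share a seed, and of *Mir98* and *Mir9-1*, are shown. Shared seeds were sought among the lower genes only. Measured genes with the same seed that were not lower were not counted, so no statement on a whole seed family follows. The seed, bases 2 to 8, is in capitals.
mmu-miR-98-5p: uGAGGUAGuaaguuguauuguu
mmu-miR-9-5p: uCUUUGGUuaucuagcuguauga
mmu-miR-34a-5p: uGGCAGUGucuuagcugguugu
mmu-miR-34b-5p: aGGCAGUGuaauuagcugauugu
mmu-miR-449c-5p: aGGCAGUGcauugcuagcugg
mmu-miR-25-3p: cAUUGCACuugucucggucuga
mmu-miR-32-5p: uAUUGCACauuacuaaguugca
mmu-miR-92a-3p: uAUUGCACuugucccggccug

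*Mir34a*, *Mir34b* and *Mir449c*, which share the seed of the Mir34 family, whose Mir34 members are targets of p53, differed by −0.28, −0.263 and −0.231. *Mir25*, *Mir32* and *Mir92-2*, which share a seed, differed by −0.326, −0.246 and −0.206. The array reads hairpin or host transcript and cannot say which strand matured. Of the 40 microRNA genes between *Dlk1* and *Dio3*, an imprinted locus, 11 were lower and 0 higher, with a median of −0.102, against 46 lower and 6 higher of the other 260, with a median of −0.063. Of 4 microRNA genes measured within *Sfmbt2*, a Polycomb gene, 2 were lower and 1 higher (*Mir466*, 0.112), and *Mir669c* was at 0.096 (adjusted p = 0.26). *Mir669b* measured 5.28, 5.56 and 5.78 in arrays 1 and 2 and 6.11, 6.25 and 6.48 in arrays 3 and 4 (−0.728, SE 0.078, adjusted p = 5.04e-05), and *Mir297b* differed by −0.725, while *Sfmbt2* was higher by 0.182 (SE 0.033, adjusted p = 0.00148). These microRNAs belong to families with many near-identical copies, and their probes may not tell the copies apart.

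Replication-dependent histone genes were lower in the *Tbx1* experiment. Of 27, 18 were lower and 0 higher over both experiments, against 7.28% and 14.4% of all genes, with a median of −0.197. With each array centred on its median 10 were lower. In *Tbx1* 17 were lower with a median of −0.268, and in Bcat 4 were lower and 1 higher with a median of −0.093, or 2 lower without Bcat KO array 1 or Bcat control array 4. The difference between the experiments itself passed for 11. *H2bc3* differed by −0.677 in *Tbx1* and by −0.054 in Bcat, and *H4c3* by −0.775 and −0.134. *H2ac4* was low in both, at −0.509 and −0.635. Among 25 cell cycle genes 3 were higher (12%) and 0 lower over both experiments. In *Tbx1* 9 were higher (36.0%, against 19.0% of all genes) and 0 lower. In Bcat 0 were higher and 1 was lower (4.0%, against 5.57% of all genes).

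Genes of the respiratory chain and of ribosomes were called lower in 27.9% to 35.5% of cases and higher in 1.64% to 5.38%, against 7.28% and 14.4% of all genes. Of 93 nuclear genes for respiratory chain subunits 33 were lower and 5 higher (median −0.093), led by *Ndufa3*, a complex I subunit, at −0.444 (SE 0.045), *Atp5k*, of ATP synthase, at −0.424 and *Ndufb7* at −0.415. Of 77 mitochondrial ribosomal protein genes 26 were lower and 2 higher (median −0.092), with *Mrpl52* at −0.366, and 43 were lower after a further quantile normalization. In *Tbx1* 28 of the 77 were lower and 10 higher, and in Bcat 20 lower and 0 higher. Of the 93 respiratory chain genes 42 were lower and 11 higher in *Tbx1*, and 20 lower and 4 higher in Bcat. The set difference was called higher in *Tbx1* than in Bcat for 10 mitochondrial ribosomal and 10 respiratory chain genes. It was called lower for 3 and 14. Of 61 cytosolic ribosomal protein genes 17 were lower and 1 higher (median −0.077), with *Rpl29* at −0.331 (SE 0.045, adjusted p = 0.000224). Without *Tbx1* KO array 1 it was 10 that were lower, with arrays centred on their medians 8 and after a further quantile normalization 30. The median of this class in the Bcat experiment ran between −0.054 and 0.011 over the settings tried, so its direction there was not settled. Of 50 proteasome genes 16 were higher and 7 lower in *Tbx1*, against 19.0% and 6.12% of all genes. In Bcat 2 were higher and 12 lower, against 6.17% and 5.57%. Of 370 zinc finger genes of the Zfp series 80 were higher (21.6%) and 20 lower (5.41%, median 0.075), with 119 higher and 21 lower in *Tbx1* and 17 and 11 in Bcat, where the median ran between −0.042 and 0.081 over the settings. Without *Tbx1* control array 1, 52 were higher over both experiments, and after a further quantile normalization 57 were higher and 43 lower.

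Across protein-coding genes the share called changed with the length of the gene on the chromosome. To keep the level alike, only genes of the upper 2 quintiles of mean level were sorted by span into quintiles, whose median spans ran from 5049 to 118841 bases. From the shortest to the longest quintile 7.76%, 16.5%, 26.5%, 34.2% and 39.5% were higher in arrays 1 and 2. Lower were 27.8%, 11.8%, 5.47%, 2.93% and 1.84%. The shortest and the longest quintile had 15.1% and 42.0% higher in *Tbx1*, and 3.81% and 19.4% in Bcat. In the Rescue experiment the medians were −0.016 in the shortest and 0.022 in the longest quintile. Span goes with transcript length, intron content and GC content, whose parts were not tested.

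**Figure D4:**
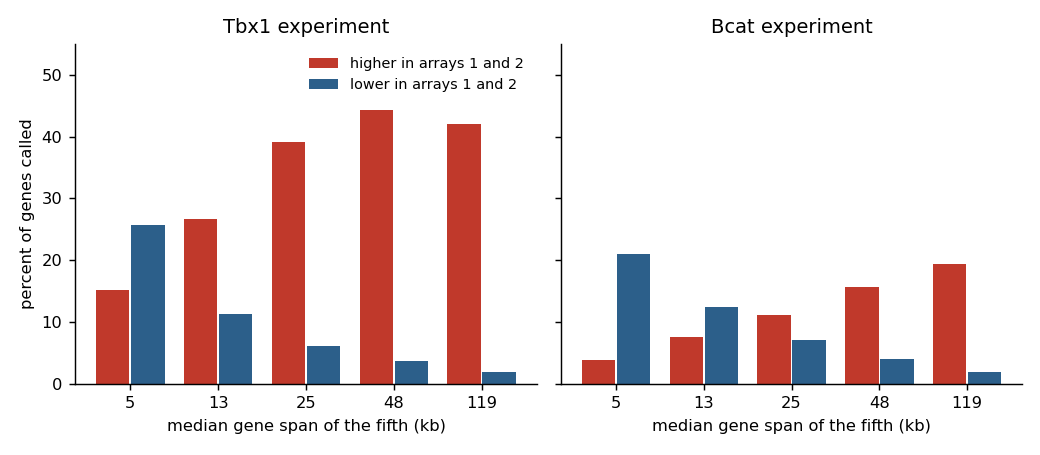
Percent of protein-coding genes of the upper 2 quintiles of mean level (vertical axis) that were higher or lower in arrays 1 and 2 than in arrays 3 and 4, by quintile of gene span (horizontal axis, median span of the quintile in kb), in the *Tbx1* and Bcat experiments. The lower share falls from short to long genes in both, to 1.91% in the longest quintile of each, and the higher share is 15.1% in the shortest and 42.0% in the longest quintile in *Tbx1*.

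Among the named genes that were higher in every group, *Narf* and *Fam172a* had the smallest adjusted p in limma, 8.59e-05 each. *Narf*, which encodes a nuclear protein that binds prelamin A, measured 11.26 and 11.28 in *Tbx1* KO and 11.28 and 11.14 in *Tbx1* control arrays 1 and 2, against 10.27 and 10.17 in KO and 10.27 and 10.27 in control arrays 3 and 4. In the Bcat experiment it measured 10.80 and 10.82 in KO and 10.72 and 10.90 in control arrays 1 and 2, against 10.34 and 10.19 in KO and 10.55 and 10.39 in control arrays 3 and 4. No set overlapped, and the difference of 0.994 in *Tbx1* was larger than the 0.443 in Bcat by 0.551 (adjusted p = 0.00116). In the Rescue experiment it was −0.006.

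Of 16 cholesterol synthesis genes 9 were higher and 0 lower over both experiments, against 14.4% and 7.28% of all genes, with a median of 0.181. Bcat arrays alone had 9 higher with a median of 0.294, *Tbx1* arrays 6, and Rescue arrays 0 with a median of −0.04. *Idi1*, which isomerizes isopentenyl diphosphate, measured 11.08, 11.40 and 11.54 in arrays 1 and 2 and 10.12, 10.69 and 11.20 in arrays 3 and 4 (0.657, SE 0.09, adjusted p = 0.000233). Only Bcat control array 3 of the arrays numbered 3 and 4 reached the range of arrays 1 and 2. *Msmo1* and *Cyp51*, which remove methyl groups from sterols, were higher by 0.502 and 0.463, and *Hmgcs1*, *Lss* and *Sqle* by 0.366, 0.352 and 0.341. With 1 array left out, between 9 and 12 of the 16 passed over both experiments. In the Bcat experiment the count ran from 4, without Bcat control array 4, to 15, without Bcat control array 3, and in *Tbx1* it was 3 without *Tbx1* KO array 2 or *Tbx1* control array 1 or 4.

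Lists of stress genes were read against the 14.4% of all genes that were higher and the 7.28% that were lower. Of 18 genes of p53 targets and apoptosis 8 were higher and 0 lower (median 0.149). *Mdm2*, the ubiquitin ligase that degrades p53, measured 10.60, 10.75 and 10.94 in arrays 1 and 2 and 10.38, 10.44 and 10.55 in arrays 3 and 4 (0.316, SE 0.044, adjusted p = 0.000262), without overlap, and *Sesn1* was higher by 0.307. Of 17 heat shock and chaperone genes 7 were higher and 0 lower, with *Hspa4l* at 0.402 and the mitochondrial chaperonin *Hspd1* at 0.251, but 3 were higher without *Tbx1* control array 3 or 4. Of 28 hypoxia and glycolysis genes 6 were higher (21.4%) and 1 lower, with *Ero1a*, an oxidase of the endoplasmic reticulum, at 0.376 and *Hk2*, a hexokinase, at 0.279. Of 27 immediate early genes 4 were higher (14.8%, close to the share of all genes) and 1 lower. The lower one was *Myc*, with 10.92, 11.09 and 11.17 in arrays 1 and 2 and 11.34, 11.40 and 11.43 in arrays 3 and 4 (−0.318, SE 0.039, adjusted p = 0.00012).

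The other named genes were *Angpt1*, *Ambp*, *Prkaa2*, *Ccdc141*, *Grasp*, *Ryr2*, *Ppp1r17*, *Cyria*, *Trdn* and *Fam172a* on the higher side. *Angpt1*, the ligand of the endothelial receptor *Tek*, measured 9.05, 9.64 and 10.21 in arrays 1 and 2 and 7.88, 8.90 and 9.37 in arrays 3 and 4 (0.822, SE 0.147, adjusted p = 0.00133). The sets overlapped across groups but not within one. *Grasp*, a scaffold protein gene, was higher by 0.704 (SE 0.085, adjusted p = 0.000107) and *Fam172a* by 0.561 (SE 0.065, adjusted p = 8.59e-05), while *Prkaa2*, a catalytic subunit of AMP kinase, was higher by 0.712. *Ryr2*, the calcium release channel of cardiac muscle, was higher by 0.669 (SE 0.199, adjusted p = 0.0251). It alone among 24 named genes lost its call when 1 array was left out, in 1 of 16 fits. All 24 were picked for large called differences without overlap, so their kept calls are no further support. Apart from small RNAs, the named gene on the lower side was *Vmn2r9*, a vomeronasal receptor gene, with 6.11, 6.25 and 6.81 in arrays 1 and 2 and 7.03, 7.33 and 7.85 in arrays 3 and 4 (−1.038, SE 0.11, adjusted p = 4.9e-05). Of 223 vomeronasal and taste receptor genes 8 were lower and 3 higher, and of 1027 odorant receptor genes 66 lower and 8 higher, against 7.28% and 14.4% of all genes.

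Of all genes 14.4% were higher and 7.28% lower, and counts of cell type markers are given beside these shares. Of 20 AHF and pharyngeal mesoderm markers 1 was higher (*Sema3c*, a guidance factor gene, 0.255) and 2 were lower. *Fgf8*, a growth factor of the field, measured 9.41, 9.68 and 9.80 in arrays 1 and 2 and 9.80, 10.02 and 10.26 in arrays 3 and 4 (−0.372, SE 0.055, adjusted p = 0.000393), and the transcription factor *Tcf21* differed by −0.27. Of 18 neural crest and arch mesenchyme markers 8 were lower and 0 higher, with *Dlx5* at −0.375 and *Dlx2*, with 10.68, 10.95 and 11.50 against 11.18, 11.33 and 11.60, at −0.366 (SE 0.073, adjusted p = 0.0026). Of the 18, 5 had a positive difference, up to 0.311. In *Tbx1* 4 were lower (22.2%, against 6.12% of all genes) and 2 higher (11.1%, against 19.0%). In Bcat 4 were lower (22.2%, against 5.57%) and 0 higher. The mean of the 18, as a deviation from the group mean, was 0.055 in Bcat KO array 2 and −0.077 in Bcat KO array 4, so these sets overlapped. Of 16 endothelial markers 6 were higher and 2 lower, with *Tek* at 0.377 (SE 0.069, adjusted p = 0.00148), *Tie1* at 0.231, *Kdr* at 0.212, *Cldn5* at −0.277 and *Egfl7* at −0.271. Of 25 Hox genes 1 was higher and 3 were lower, with a median of 0.004. *Hoxb2*, which marks the hindbrain and its crest from the third rhombomere caudally, had 11.06, 11.20 and 11.46 in arrays 1 and 2 and 11.57, 11.70 and 11.77 in arrays 3 and 4 (−0.436, SE 0.056, adjusted p = 0.000167), without overlap. Of 15 liver, gut and mesothelium markers 3 were higher and 0 lower, with *Ttr* at 0.7, *Alb* at 0.54 and *Fgb* at 0.529, and *Afp* was at 0.853 without passing (adjusted p = 0.0523). The count of 3 became 2 without *Tbx1* KO array 1, 5 without *Tbx1* KO array 4, *Tbx1* control array 1, Bcat KO array 2 or Bcat control array 1, and 6 without Bcat control array 3 or with arrays centred on their medians. The mean of the 15 liver markers, as a deviation from the group mean, lay between −0.113 and 0.28 in arrays 1 and 2 and between −0.391 and 0.246 in arrays 3 and 4 of the *Tbx1* experiment, and between −0.091 and 0.478 against −0.356 and −0.031 in the Bcat experiment. Of 11 erythroid markers 0 passed. Of 6 genes that mark the sex of the embryos 0 passed, with *Xist* at −0.859 in *Tbx1* and 0.444 in Bcat. The part of these markers in the differences of other genes was not tested.

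Heart muscle genes were higher in the Bcat experiment, where 1 array carried much of the difference. Of 16 heart tube genes 6 were higher and 0 lower in Bcat (median 0.608), where 6.17% of all genes were higher. In *Tbx1* 0 were (median 0.059). Of 30 sarcomere genes 5 were higher in Bcat (median 0.492) and 0 in *Tbx1* (median 0.056). The difference between the experiments itself passed for 0 of the 16 heart tube genes and 0 of the 30 sarcomere genes. In the Rescue experiment 0 passed on either list, with medians of 0.116 and 0.191. Bcat control array 2 stood above its group mean by 1.367 over the heart tube genes and by 1.1 over the sarcomere genes. Over the heart tube genes the other Bcat arrays lay between −0.111 and 0.273 in arrays 1 and 2 and between −0.697 and −0.006 in arrays 3 and 4. *Myh6*, the atrial myosin heavy chain, measured 10.76 and 9.57 in Bcat KO and 12.08 and 12.77 in Bcat control arrays 1 and 2, against 9.42 and 9.26 in KO and 10.94 and 9.93 in control arrays 3 and 4. Its difference was 1.406 (adjusted p = 0.0198), and 1.151 without Bcat control array 2 (adjusted p = 0.0773). *Nppa*, the atrial natriuretic peptide gene, had 1.654 (adjusted p = 0.0396), and 1.107 without that array (adjusted p = 0.161). *Ryr2*, with 1.047 and 0.726, and *Slc8a1*, a sodium and calcium exchanger gene, with 1.116 and 0.703, kept their calls (adjusted p = 0.0197 and 0.0433 without the array). Without it 3 heart tube genes (median 0.259) and 1 sarcomere gene (median 0.207) passed in Bcat, and without Bcat control array 4 there was 1 of each. Without Bcat control array 2, 10 C/D box small nucleolar RNAs were lower there with a median of −0.388.

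The set difference itself differed between the experiments for 864 genes that were higher (4.33%) and 181 that were lower (0.908%) in *Tbx1* relative to Bcat. With arrays centred on their medians the count was 106 and 100. *Ndufaf1*, an assembly factor of complex I, differed by 0.591 in *Tbx1* and −0.311 in Bcat, *Fkbpl* by 0.543 and −0.294, and *2210016F16Rik* by 0.647 and −0.149. *Snora69* was at 0.256 in *Tbx1* and at −0.746 in Bcat. *Rny1*, a Y RNA that binds the Ro protein, went the other way. It measured 6.94 and 7.48 in *Tbx1* KO and 7.43 and 6.96 in *Tbx1* control arrays 1 and 2, against 8.64 and 9.49 in KO and 9.28 and 9.19 in control arrays 3 and 4. Bcat arrays 1 and 2 measured 8.43 and 8.74 in KO and 8.93 and 8.70 in controls, against 9.83 and 8.50 in KO and 8.60 and 8.49 in control arrays 3 and 4. The difference was −1.947 in *Tbx1*, without overlap, and −0.156 in Bcat, where the sets overlapped. *Rny3* followed it, with −0.97 and −0.148, as did *Snord82*, with −1.298 and −0.314. *AI506816*, a noncoding gene, had the largest difference in *Tbx1*, −2.799 (SE 0.551, adjusted p = 0.000999), and −0.322 in Bcat. In *Tbx1* KO it measured 8.09 and 10.95 in arrays 1 and 2 against 11.24 and 11.63 in arrays 3 and 4, so array 2 lay far above array 1, and in *Tbx1* controls 7.78 and 7.61 against 11.65 and 11.10.

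Within the Rescue experiment the order of the sets was looked at for the same RNAs. *Snord49b* measured 11.90 and 12.004 in Rescue KO arrays 1 and 2 against 12.50 and 13.03 in arrays 3 and 4, and 11.90 and 11.61 against 11.98 and 11.62 in Rescue controls. *Snord35a* measured 9.99 and 9.98 against 10.55 and 10.90 in Rescue KO, and 9.80 and 9.68 against 9.30 and 9.55 in Rescue controls. Arrays 3 and 4 of Rescue KO thus lay above arrays 1 and 2 and the controls did not show that order for both RNAs. The difference between KO and control set differences did not pass for any gene.

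With the set difference in the fit, genotype calls shifted. In the *Tbx1* experiment 10 genes passed for KO against control, against 6 without the set term, and the 6 were among the 10. In the Bcat experiment 0 passed with and without the term (limma, 1753 and 1140 at an unadjusted p under 0.05). With 1 array left out, the count in *Tbx1* ran from 1, without *Tbx1* KO array 1, to 77, without *Tbx1* KO array 2.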

How the data were processed

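The authors hybridised RNA amplified from 100 ng per pool to Affymetrix Mouse Gene 1.0 ST arrays and processed the intensities with RMA in the oligo package (background correction, quantile normalization, summarization). The deposited values are log2 intensities, 1 per probe set and array. The methods add ComBat, and no source used here says whether the deposited values include it or which genome build was used. Each array is 1 pool, and precision is set by how few arrays a group has.

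Of 35556 probe sets, 21789 had 1 gene symbol, 1621 several and 12146 none. Probe sets with 1 symbol were averaged per gene, which gave 19938 genes, of which 19856 matched RefSeq. Genes were fitted with limma 3.58.1 in R 4.3.3. Over 16 arrays the terms were 4 group means and 1 set difference (arrays 1 and 2 minus arrays 3 and 4), and over 24 arrays 6 group means and a set difference per experiment. Calls used a Benjamini-Hochberg adjusted p under 0.05 over all genes. Named genes were the 12 per direction with the largest difference among called genes whose sets did not overlap in any of the 4 groups, the 6 per direction for each experiment and for the difference between them, and members of lists and classes. Hosts of small RNAs and gene spans came from RefSeq positions. Classes and lists are described by counts and medians without a test. The members and lists were chosen with earlier results of these data known. The set differences over both experiments, in *Tbx1* and in Bcat were tested on simulated data, and the other contrasts and fits were not. Of simulated differences of 0.25, 74.6%, 44.8% and 31.3% were recovered, and of those of 0.5, 98.5%, 94.0% and 94.0%. Alternatives were other scalings, fits, filters and replicate terms, and each array left out. Probe sets with several or no symbol were used only as rows of their own.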

Additional observations from a re-analysis of the deposited data

Results flagged for a closer look

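Single arrays stood far from the other 3 of their group in 4 of 156 groups looked at, where chance marks about 1 group in 20. For *Ryr2* these were *Tbx1* control array 4, at a log2 level of 8.55, with 0.862 of the group's range between it and the next array, and Bcat KO array 1, at 9.29, with 0.872 of the range. For the mean of the cholesterol synthesis genes it was Bcat control array 4, at −0.324 from its group mean (0.833 of the range). For the heat shock and chaperone genes it was Bcat KO array 4, at −0.126 (0.879 of the range).

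The set difference differed between the *Tbx1* and Bcat experiments for 1045 genes (limma, adjusted p under 0.05). Toward a higher difference in *Tbx1* the largest were *Snora69* (1.001, adjusted p = 0.000335), *Ndufaf1* (0.902, adjusted p = 0.00018), *Nxpe2* (0.899, adjusted p = 0.0148), *Fkbpl* (0.837, adjusted p = 0.000312), *Gar1* (0.803, adjusted p = 5.61e-05) and *2210016F16Rik* (0.796, adjusted p = 2.34e-05). Toward a lower difference in *Tbx1* they were *Rny1* (−1.791, adjusted p = 0.0246), *AY036118* (−1.187, adjusted p = 0.00557), *Snord82* (−0.983, adjusted p = 0.0038), *Tecrl* (−0.974, adjusted p = 0.0454), *Rny3* (−0.822, adjusted p = 0.0125) and *Fbxo44* (−0.802, adjusted p = 0.0281). *Tecrl*, a gene of cardiac calcium handling, differed by −0.105 in *Tbx1* and by 0.868 in Bcat. Without Bcat control array 2, which was high in heart genes, its Bcat difference was 0.737 and kept its call (limma, adjusted p = 0.0331).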

How the results depend on the processing

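The counts of genes that differed between arrays 1 and 2 and arrays 3 and 4 moved with the settings. Over both experiments, against 4324 genes, every probe set as a row gave 7140, KO arrays alone 1790, control arrays alone 566 and an unadjusted p under 0.05 with a fold over 1.5 gave 60. In the *Tbx1* experiment, against 5012, the same settings gave 7767, 1909, 1665 and 125. In the Bcat experiment, against 2342, they gave 3894, 8, 415 and 102, array weights gave 3660, and a fit of that experiment alone gave 447. In the Rescue experiment the p and fold rule gave 3 against 0. For the difference between the experiments, against 1045, median centring gave 206, array weights 2197 and the p and fold rule 86. For a set difference that differed between KO and control arrays, an unadjusted p under 0.05 gave 2019 in *Tbx1*, 1692 in Bcat and 541 in Rescue against 0 each.

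With 1 array left out the count over both experiments ran from 3533 to 4523, in *Tbx1* from 3919 to 5075, in Bcat from 1235 (without Bcat control array 4) to 2065, in Rescue it was 0 throughout, and for the difference between the experiments it ran from 564 (without Bcat control array 3) to 1765 (without Bcat KO array 4). Genotype calls ran from 1 to 77 in *Tbx1*, from 0 to 43 in Bcat (without Bcat control array 4), and stayed at 0 in Rescue.

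Arrays with the same number did not deviate together in all groups, with correlations between KO and control of −0.174, −0.183, −0.173, 0.461, −0.0611 and 0.209, so the numbers name arrays and do not pair them. A random replicate block over the numbers gave 3944 genes over both experiments, 5111 in *Tbx1*, 2429 in Bcat, 0 in Rescue and 1087 for the difference. Against 10 genotype calls in *Tbx1* and 0 in Bcat with the set term, a fixed replicate block gave 0 and 2, and no set term gave 6 in *Tbx1*. Of 479 values of 60 named gene results under other settings 434 kept their call, 45 lost it and 0 changed direction. Of 768 with 1 array left out 728 kept it and 40 lost it. The 60 were picked as called and large, so these counts do not describe called genes in general. The cause of the changes between settings was not tested.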

Other observations

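Large differences were more frequent among some probe sets without a gene symbol. Of the 6617 numbered below the first probe set with a gene, 3.61% differed by more than 1.5-fold over both experiments, against 0.454% of probe sets with 1 symbol. These shares were 2.8% and 0.0551% in the Rescue experiment, where no probe set was called. Of the probe sets with several symbols 13.4% were lower in arrays 1 and 2, against 6.93% of those with 1 symbol. The arrays closest to each other by the median absolute difference over genes were Bcat control array 4 and Rescue control array 1, at 0.0549, of different experiments.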
